A study of Mus musculus with 24 samples.

Results

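Hmgcs1, Sqle, Insig1, Srebf2, Idi1, Cyp51 and Lss are 7 genes of cholesterol synthesis and of its control by sterols, and their mRNA was followed in the colon and liver of 12 female C57BL/6 mice. They were taken by gene name and had 18 probes among 41174 on the array: 3 each for Hmgcs1, Cyp51 and Lss, 1 for Sqle, 2 each for Insig1 and Idi1, and 4 for Srebf2. Where a gene had several probes, the one with the highest mean intensity stood for it. All dams received a high-fat diet low in folate and selenium from 7 days before mating through lactation. At weaning, at about 28 days, offspring either stayed on that diet (HF-low-low, with folate at 0.4 mg/kg and selenium at 0.1 mg/kg) or moved to a high-fat diet with sufficient levels (HF-low-suf, with folate at 1.8 mg/kg and selenium at 0.60 mg/kg). Both diets had the same milk fat and the same added cholesterol, and mice were fasted and re-fed before tissues were taken at 12 weeks of age. No group without the high-fat, cholesterol-containing diet was analysed here. Each of the 4 groups (colon HF-low-low, colon HF-low-suf, liver HF-low-low and liver HF-low-suf) held 6 arrays, and colon and liver of a diet came from the same 6 mice. Every array carried 1 mouse sample in Cy3 and a common reference in Cy5, pooled from colon and liver RNA of all the mice, with no dye swap. A level is given throughout as log2(Cy3/Cy5), so that 0 is the level of the pool and 1 unit is 2-fold.

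Cells build cholesterol from acetyl-CoA through mevalonate, isoprenoids, squalene and lanosterol. Supply is sensed in the endoplasmic reticulum: when sterols are scarce, the precursor of SREBP-2, encoded by Srebf2, moves to the Golgi and is cut, and the released part raises transcription of the synthesis enzymes and of genes of LDL uptake, whereas INSIG proteins hold the precursor back when sterols are plentiful. SREBP-2 binds sterol regulatory elements and works together with NF-Y, which binds CCAAT boxes, and with SP1, which binds GC boxes. Liver takes up dietary and lipoprotein cholesterol as well as making it.

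The stretches of promoter that hold the sterol regulatory element and the CCAAT boxes are shown as the sequences that SREBP-2 and NF-Y are known to bind. Promoters of 6 of the 7 genes were matched by symbol in the RefSeq table (GRCm38.p6), each from 250 bases before to 50 bases after the start, and both strands were searched. Capitals mark CCAAT or, for a box on the other strand, ATTGG, and the sterol regulatory element TCACNCCAC, which in Srebf2 lacks its last base. A further CCAAT box of Hmgcs1, at position 11 after the start, lies outside the stretch shown. Each is written 5′ to 3′ on the strand of the gene.
Hmgcs1, chr13:119690102-119690322, plus strand: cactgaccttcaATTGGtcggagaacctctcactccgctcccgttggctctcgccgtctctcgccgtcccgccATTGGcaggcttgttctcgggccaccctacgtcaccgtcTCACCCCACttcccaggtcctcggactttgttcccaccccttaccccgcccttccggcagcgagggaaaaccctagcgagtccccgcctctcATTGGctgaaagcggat
Srebf2, chr15:82147095-82147150, plus strand: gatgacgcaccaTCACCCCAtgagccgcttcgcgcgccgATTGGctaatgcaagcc
Idi1, chr13:8885549-8885605, plus strand: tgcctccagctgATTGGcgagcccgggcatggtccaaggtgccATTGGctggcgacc
Insig1, chr5:28071184-28071212, plus strand: cgccctcctcccATTGGctccggcggcct
Cyp51, chr5:4104710-4104738, minus strand: cgctgtccgccaCCAATctggtcctgaga
Lss, chr10:76531531-76531559, plus strand: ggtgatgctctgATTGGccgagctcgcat

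The full element TCACNCCAC lay in 1 of the 6 promoters, that of Hmgcs1, where it began at position -137 from the start. It was found in 1.24% of the 32851 promoters of the table. The element without its last base, a form searched after the data were seen, was also in the Srebf2 promoter, at position -162, and in 4.36% of all promoters. A CCAAT box lay in all 6, and in 37.4% of all promoters. A GC box (GGGCGG) was likewise in all 6, and in 35.7% of all promoters. None of these kinds of motif overlapped another. The matches describe letters only, since binding was not measured.

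Median Cy3 signal was 3.77 to 7.22 times background, and 26.1% to 71.9% of probes were well above background in Cy3. The Cy5 reference was brightest on colon HF-low-suf replicate 5 (18.2 times background) and liver HF-low-suf replicate 4 (12.7 times), and at most 7.62 times on the other arrays. On liver HF-low-suf replicate 4, 8.75% of spots were flagged as outliers, against at most 0.768% elsewhere. All 7 hepatocyte markers on the array were higher in liver, and all 8 colon epithelium markers were lower there, so both tissues carried their labelled markers. The files placed the main probes, in mm7 coordinates, at chr15:59397289-59397348 for Sqle, chr5:27110161-27110220 for Insig1, chr15:82289660-82289719 for Srebf2, chr5:4089242-4089301 for Cyp51 and chr10:76208898-76208957 for Lss, and that of Hmgcs1 on an unplaced contig. Both Idi1 probes were placed on chromosome 2, whereas RefSeq has the Idi1 gene on chromosome 13, so that their target is less certain.

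Liver and colon were compared in 1 fit of the 24 arrays that took the mouse as a random effect. mRNA abundance was lower in liver than in colon for 6 of the 7 genes (limma adjusted P below 0.05 and a fold above 1.5), and Insig1 did not pass. By the same rule 12.2% of all probes were lower in liver and 11.4% higher. Among probes well above background on at least 12 of the 24 arrays, 24.1% were lower. In bulk tissue, fewer cells of a type and less RNA per cell cannot be told apart.

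Hmgcs1 encodes the cytosolic synthase that makes HMG-CoA, an early step of the pathway. Its level ran from -2.63 to -1.32 in liver (median -2.04, n = 12) and from -0.61 to 0.29 in colon (median -0.28, n = 12). The tissues did not overlap, and liver was lower in 12 of 12 mice. Liver was 3.54-fold lower (difference -1.82 ± 0.13 SE on the log2 scale, limma adjusted P = 4.15e-12), with -1.84 on the first scan day and -1.80 on the second. The other Hmgcs1 probes were dim, well above background on at most 2 livers and 8 colons, and did not pass (-0.34 and -0.26).

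Idi1 encodes the isomerase that interconverts the isoprenoid building blocks. Liver levels lay between -2.96 and -0.97 (median -2.55, n = 12), and colon levels between -0.36 and 0.30 (median 0.08, n = 12). Again no liver reached any colon. Liver was 4.93-fold lower (-2.30 ± 0.16, limma adjusted P = 1.59e-12), with -2.53 and -2.08 on the 2 scan days. The second, dimmer probe also passed (-0.71 ± 0.16).

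Sqle encodes squalene epoxidase, which adds oxygen to squalene at a slow step of the pathway. It showed the largest difference between the tissues among the 7 genes. Liver levels spanned -3.96 to -1.44 (median -3.20, n = 12) and colon levels -0.50 to 0.18 (median 0.04, n = 12). Every liver was below every colon, by 7.97-fold on average (-2.99 ± 0.20, limma adjusted P = 1.06e-12), with -3.08 and -2.91 on the scan days. Its single probe was well above background on 12 colons and 9 livers. The size of the difference depends on the processing, since it was -3.92 with the signals processed by Feature Extraction.

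The next enzymes, Lss and Cyp51, make lanosterol and remove a methyl group from it. Lss ran from -0.51 to 0.56 in liver (median -0.05, n = 12) and from 0.19 to 1.09 in colon (median 0.85, n = 12). The tissues overlapped, although liver was lower in each of 12 mice. The difference was the smallest of those that passed (-0.79 ± 0.11, 1.73-fold lower, limma adjusted P = 1.75e-06), with -0.83 and -0.75 on the scan days. Of the other Lss probes, 1 passed (-1.07 ± 0.12) and 1 did not (-0.33 ± 0.16).
Cyp51 ran from -2.82 to -0.77 in liver (median -2.06, n = 12) and from -1.10 to -0.19 in colon (median -0.56, n = 12). It was lower in the liver of 11 of 12 mice, and in HF-low-low replicate 6 the liver was higher by 0.09. The difference was -1.33 ± 0.18 (2.52-fold lower, limma adjusted P = 5.29e-07), with -1.60 and -1.06 on the scan days. All 3 Cyp51 probes passed, but the main one was well above background on only 6 of 12 livers, and with the signals processed by Feature Extraction the difference was -2.30.

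Of the control genes, Srebf2 was lower in liver and Insig1, a brake on SREBP processing, did not pass. Srebf2 ran from -1.34 to -0.07 in liver (median -0.64, n = 12) and from 1.17 to 1.63 in colon (median 1.29, n = 12). The tissues lay well apart, with a difference of -1.99 ± 0.11 (3.97-fold lower in liver, limma adjusted P = 1.44e-14), and -2.08 and -1.90 on the scan days. Of the other Srebf2 probes, 2 passed in the same direction (-1.05 and -1.46), and 1 that was above background on 1 liver and 1 colon did not (-0.05).
Insig1 ran from -1.11 to 1.30 in liver (median -0.10, n = 12) and from -0.97 to 0.33 in colon (median -0.43, n = 12). The ranges overlapped, although the liver was higher in 10 of 12 mice. The difference was 0.37 ± 0.20 (limma adjusted P = 0.172), with a 95% interval from -0.05 to 0.79, and 0.15 and 0.59 on the scan days. With arrays centred on their median instead of loess it was -0.02, so its sign depends on the scaling. The second Insig1 probe gave 0.40 ± 0.13 (limma adjusted P = 0.0156), under the 1.5-fold limit.

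**Figure D1:**
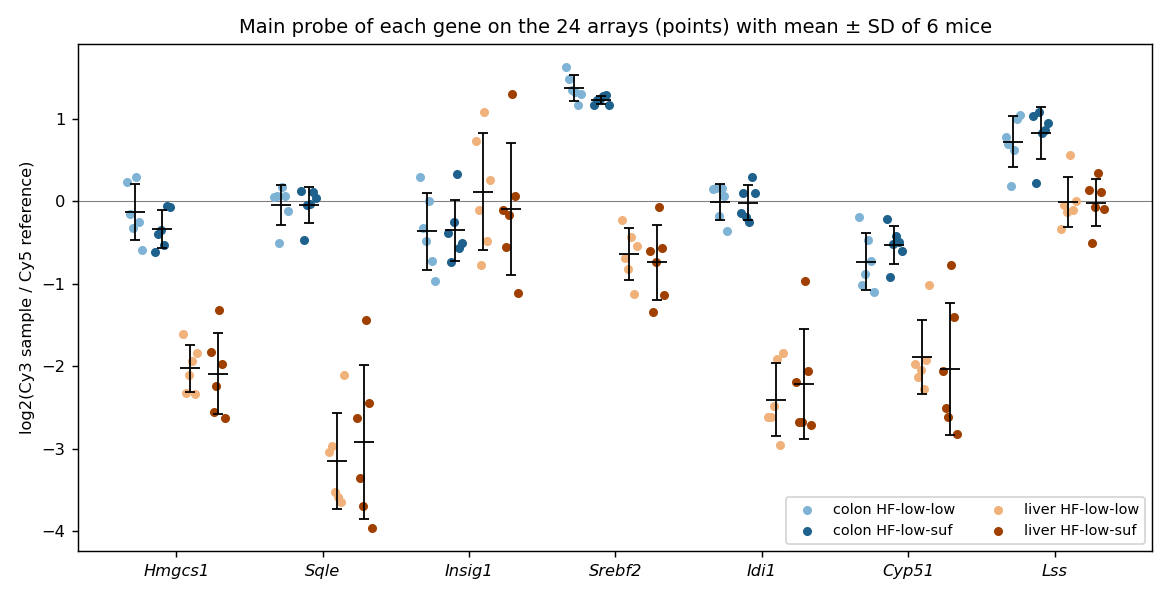
Level of each gene, as log2 of the Cy3 sample over the Cy5 reference, on the 24 arrays by tissue and diet. Points are single arrays and black bars are means ± SD of 6 mice. For Hmgcs1, Sqle, Srebf2 and Idi1 the 12 livers lie below the 12 colons, whereas within a tissue the 2 diet groups overlap for all 7 genes.

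For 4 genes (Hmgcs1, Sqle, Srebf2 and Idi1) the 12 livers lay wholly below the 12 colons, as they did for 6.49% of all probes. An exact sign-change permutation test over the 12 mice, two-sided, gave P = 0.000488 for these 4 and for Lss, the smallest P that 12 mice allow. The same exact test gave P = 0.000977 for Cyp51 and P = 0.0391 for Insig1. The median difference of the 7 genes was -1.82, beside 0.02 over all probes.

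Other genes of sterol metabolism were read from lists chosen by function. Of 16 other synthesis enzymes, 6 were higher in liver, 8 lower and 2 not called, with a median difference of -0.59. The largest rises were Acat2, the cytosolic thiolase that precedes Hmgcs1 (3.54 ± 0.08), Tm7sf2, a sterol reductase (1.73 ± 0.16), and Sc5d, a late desaturase (1.70 ± 0.13). The largest falls were Sc4mol, a methyl sterol oxidase that acts after Cyp51 (-2.39 ± 0.20), Mvd, the mevalonate diphosphate decarboxylase (-1.52 ± 0.17), and Fdps, which builds farnesyl diphosphate (-1.30 ± 0.18).
The enzymes were also grouped by their place in the pathway, with the 5 enzymes among the 7 genes included. The 12 assigned to the part up to lanosterol comprised 1 higher in liver, 9 lower and 2 not called, with a median difference of -0.88. These 12 include Ggps1, 1 of the 2 not called (-0.58), which lies on a side branch and is not itself a step to lanosterol. The 9 enzymes after lanosterol comprised 5 higher and 4 lower, with a median of 0.74. This grouping was made after the values were seen, and the groups were not tested against each other.

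**Figure D2:**
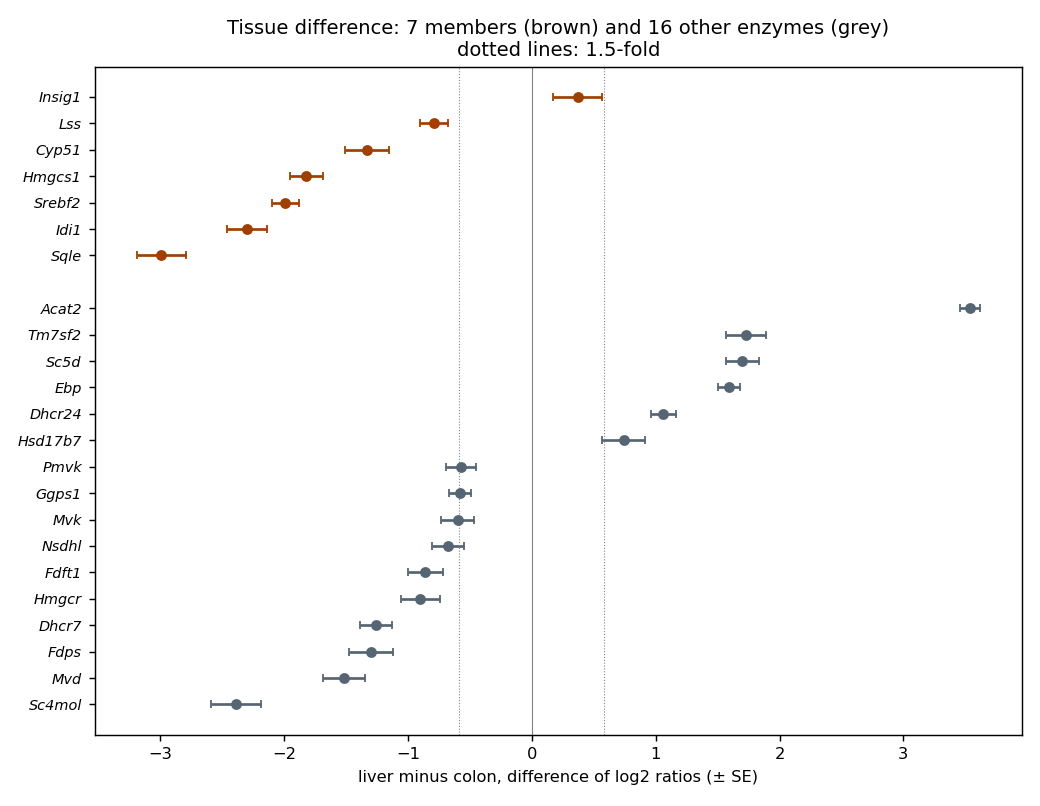
Difference in level, liver minus colon on the log2 scale, for the 7 genes and for 16 other synthesis enzymes, with bars of ± 1 SE. Dotted lines mark 1.5-fold. Sqle lies lowest at -2.99 and Acat2 highest at 3.54, and Insig1 is the only one of the 7 genes above 0.

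Of 7 genes of SREBP control, 5 were higher in liver and 1 lower, with a median difference of 0.96. Insig2, the other INSIG gene, was higher by 2.90 ± 0.11, and Srebf1, which encodes SREBP-1, by 1.89 ± 0.12. Mbtps1, the first of the proteases that cut SREBP, was lower (-0.97 ± 0.09). Of the 8 genes of LDL uptake and sterol transport on the array, 3 were higher in liver, 2 lower and 3 not called, with a median of -0.26. Npc1, which moves cholesterol out of lysosomes, was higher by 1.66 ± 0.14, and Lrp1, a lipoprotein receptor, by 0.69 ± 0.16. Stard4, a sterol carrier (-1.40 ± 0.25), and Npc2, which works with Npc1 (-0.63 ± 0.12), were lower.

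Of 8 genes of sterol export, esterification and absorption, among them the HDL receptor Scarb1, 6 were higher in liver, 1 lower and 1 not called, with a median of 1.98. Abcg5, a subunit of the transporter that puts sterols into bile, was higher by 3.41 ± 0.21, Scarb1 by 2.85 ± 0.14 and the exporter Abca1 by 2.61 ± 0.13, whereas Soat1, which esterifies cholesterol, was lower (-1.69 ± 0.24). Of 7 fatty acid synthesis genes, 5 were higher in liver and 2 not called, with a median of 1.28. The largest of these were Srebf1, given above, the elongase Elovl6 (1.67 ± 0.17) and the desaturase Scd1 (1.45 ± 0.21).

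The next question was whether sufficient folate and selenium after weaning changed these genes. In liver none of the 7 passed the threshold of the study (unadjusted P below 0.01 and a fold above 1.5), which 0.117% of all probes passed (48 probes, or 131 with the slide as a replicate block). In colon none passed either, against 0.168% of all probes (69 probes). With a mouse left out, the probes that passed numbered 9 to 304 in liver and 23 to 257 in colon. No probe of either tissue had a limma adjusted P below 0.05. Unadjusted P below 0.05 was reached by 877 probes in liver (2.13%) and 1228 in colon (2.98%), and by no main probe of the 7 genes. Differences are HF-low-suf minus HF-low-low, with the sample in Cy3 as the labels give the dyes. The study likewise counts a rise with supplementation as positive. With the dyes as labelled, however, the transcripts it lists changed in the direction opposite to the one it gives, so the sign of diet differences is uncertain. Values for those transcripts are not given here.

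In liver the differences of the 7 genes lay between -0.21 (Insig1) and 0.23 (Sqle). Sqle ran from -3.65 to -2.11 in HF-low-low livers (median -3.29, n = 6) and from -3.96 to -1.44 in HF-low-suf livers (median -3.00, n = 6). The HF-low-suf range enclosed the HF-low-low range, and the 95% interval of the difference went from -0.61 to 1.06 (exact permutation P = 0.634). On the scan days the Sqle difference was -0.05 and 0.50.
Insig1 ran from -0.77 to 1.08 in HF-low-low livers (median 0.08, n = 6) and from -1.11 to 1.30 in HF-low-suf livers (median -0.14, n = 6). Here too the HF-low-suf livers were spread over a wider range, and the interval went from -1.03 to 0.60 (exact permutation P = 0.628). The interval of Idi1 was -0.43 to 0.82 and that of Cyp51 -0.84 to 0.57, so that for these 4 genes the data did not exclude a 1.5-fold change. For the main probes of Hmgcs1 (-0.53 to 0.40), Srebf2 (-0.56 to 0.35) and Lss (-0.38 to 0.36) the interval lay within 1.5-fold. That bound depends on the probe and the processing, since the other Lss probes (-0.61 to 0.31 and -0.74 to 0.35) and the dimmest Hmgcs1 probe (-0.62 to 0.89) reached past it. With the signals processed by Feature Extraction the liver difference of Lss was 0.28 ± 0.42, that of Sqle 0.43 ± 0.40 and that of Cyp51 -0.52 ± 0.32, and none of the 7 genes passed.

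In colon the differences ran from -0.21 (Hmgcs1) to 0.20 (Cyp51), and every interval of the 7 main probes lay within 1.5-fold, although other probes of Hmgcs1, Srebf2 and Lss reached past it. The ones that came nearest were Hmgcs1 (-0.57 to 0.15) and Cyp51 (-0.16 to 0.57). Srebf2 had the lowest exact P: HF-low-low colons ran from 1.17 to 1.63 (median 1.34, n = 6) and HF-low-suf colons from 1.17 to 1.29 (median 1.23, n = 6). The HF-low-suf colons lay within the lower part of the HF-low-low range. The difference was -0.15 ± 0.12 (exact permutation P = 0.0433, limma P = 0.236, limma adjusted P = 1.0), with -0.27 on the first scan day and -0.02 on the second. Another bright Srebf2 probe went the other way, at 0.44 ± 0.16 (exact permutation P = 0.0195, limma P = 0.0165, limma adjusted P = 1.0), so the probes of this gene disagreed in sign.

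Whether the diet difference itself differed between liver and colon was tested as an interaction, which ran from -0.34 for Cyp51 to 0.23 for Sqle, and from -0.77 to 0.42 for the same genes with the signals processed by Feature Extraction. None of the 7 genes passed (lowest limma adjusted P = 0.944), nor did any probe of the array, of which 2646 (6.43%) had an unadjusted P below 0.05. No gene of the 5 pathway lists passed the threshold for diet in liver or colon. Fat markers were uneven between the livers: the mean level of 5 adipose markers ran from -1.95 to -0.43 in HF-low-low and from -1.48 to 3.43 in HF-low-suf, where replicate 1 was highest. The mean of 7 skeletal muscle markers ran from -4.76 to -4.02 in HF-low-low livers and from -4.61 to -2.52 in HF-low-suf livers, where replicate 2 was highest. Without HF-low-suf replicates 1 and 2 none of the 7 genes passed in liver either.

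**Figure D3:**
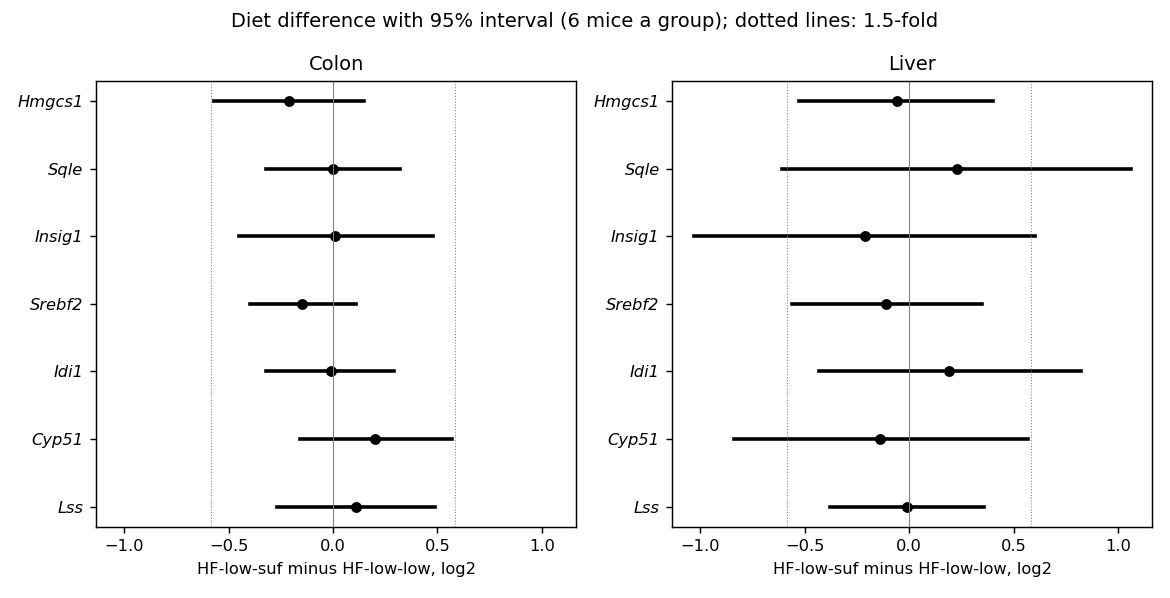
Diet difference of the 7 genes in colon and liver, HF-low-suf minus HF-low-low on the log2 scale, with 95% intervals from limma and 6 mice in each group. Dotted lines mark 1.5-fold. Every interval spans 0, and those of Sqle and Insig1 in liver are the widest.

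By their main probes, livers of the same diet differed from each other more than colons did for 6 of the 7 genes. The SD within a diet was 0.78 for Sqle, 0.76 for Insig1, 0.65 for Cyp51, 0.57 for Idi1, 0.40 for Hmgcs1, 0.39 for Srebf2 and 0.30 for Lss in liver. In colon it was 0.23, 0.42, 0.30, 0.22, 0.29, 0.12 and 0.31 in the same order. The second Hmgcs1 probe had SDs within HF-low-low and HF-low-suf of 0.46 and 0.26 in liver and 0.51 and 0.22 in colon. That of Insig1 had 0.49 and 0.19 in liver and 0.32 and 0.37 in colon. Second probes of Cyp51 (liver 0.64 and 0.87, colon 0.18 and 0.17) and Idi1 (0.46 and 0.54, against 0.44 and 0.30) varied more in liver. Of the 9775 probes well above background on all 12 livers, the median SD was 0.26, and 97.9% had a lower SD than Sqle and 60.5% a lower one than Lss. Sqle and Insig1 (9 livers), Lss (8) and Cyp51 (6) were themselves not above background on all 12 livers, so these shares set them against brighter probes. The ratio of the liver SD to the colon SD was highest for Sqle (3.33) and Srebf2 (3.28) and lowest for Lss (0.944). These ratios belong to the main probes and were not tested. The second brightest Srebf2 probe, well above background on all 12 livers and 12 colons, differed. Its SD was 0.18 and 0.17 in HF-low-low and HF-low-suf livers, and 0.22 and 0.13 in the colons. For the second brightest Lss probe the SDs were 0.35 and 0.43 in livers and 0.22 and 0.16 in colons.

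The same livers stood at the ends of the range for several genes. Liver HF-low-suf replicate 4, the array with the bright reference, was highest of the 12 for 6 of the 7 genes and second for Lss. Liver HF-low-suf replicate 6 was lowest for Hmgcs1, Sqle, Insig1 and Cyp51, and replicate 2 of that group for Srebf2 and Lss. Both ends thus lay in HF-low-suf for 5 of the 7 genes.

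Over the 12 livers all 21 pairs of the 7 genes correlated positively. The median Pearson r was 0.72, the range 0.33 to 0.93 and the median Spearman rho 0.65. After Benjamini-Hochberg adjustment over the 21 pairs, 15 had a permutation P below 0.05 for r and 14 for rho. All values share the reference and the array, so an array that reads high for many genes enters every pair. For comparison, the r of Hmgcs1 with the 9775 bright probes had a median of 0.01, with the 5th percentile at -0.61 and the 95th at 0.64. Loess centres the ratios of each array near 0, so a median r near 0 cannot measure such an array effect. The r of Hmgcs1 with Sqle, Insig1, Srebf2, Idi1 and Cyp51 exceeded that of at least 98.9% of these probes. With Lss it exceeded only that of 86.8%. For the other genes ranked in the same way the shares ran from 73.9% (Sqle with Lss) upwards, with 91.8% for Sqle with Insig1 and 81.0% for Cyp51 with Lss.

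Hmgcs1 with Srebf2 was the closest pair (r = 0.93, rho = 0.92, permutation P = 4.0e-05, adjusted P = 0.00084). When the 2 livers with the most extreme Hmgcs1 levels were left out, r was 0.89. Insig1 with Srebf2 gave r = 0.88 and rho = 0.96 (permutation P = 0.00027, adjusted P = 0.0019), and r = 0.85 without the 2 farthest livers. Both pairs held within each diet (r of 0.83 to 0.96) and each scan day (0.81 to 0.96).
Sqle with Cyp51 gave r = 0.90 and rho = 0.76 (permutation P = 9.0e-05, adjusted P = 0.00094), and r = 0.74 without the 2 farthest livers. Idi1 with Lss gave r = 0.69 and rho = 0.72 (permutation P = 0.015, adjusted P = 0.027), and 0.75 without the 2 farthest. Lss had the lowest values with other genes, down to r = 0.33 and rho = 0.43 with Sqle (permutation P = 0.29, adjusted P = 0.29). Many pairs leaned on few livers, since the median r of the 21 pairs was 0.49 without the 2 farthest.

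The r values depended on the probes chosen. With the second brightest probe of each gene that had several in place of the first, the median r was 0.44, and Insig1 gave r of -0.25 with Hmgcs1 and -0.22 with Srebf2, pairs in which both probes were exchanged. With Sqle, which has a single probe, only the Insig1 probe was exchanged, and r was -0.17. With the third brightest the median was 0.29. The second Insig1 probe was well above background on 6 livers, and its r with the main Insig1 probe was 0.40.

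Without liver HF-low-suf replicate 4 the median r was 0.59, and all 21 pairs were still positive, the lowest at 0.10. The r of the 7 genes with the Cy5 signal over background was 0.30 to 0.72 over the 12 livers and -0.20 to 0.43 over the other 11. The median r of the pairs was 0.42 within HF-low-low and 0.91 within HF-low-suf, the group of this array, and 0.47 on the first scan day and 0.85 on the second (n = 6 livers each). Within HF-low-low, r was below 0 for Lss with Cyp51 (-0.22), Sqle (-0.21) and Hmgcs1 (-0.07), and for Insig1 with Cyp51 (-0.04). On the first scan day 19 of the 21 pairs were positive.

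**Figure D4:**
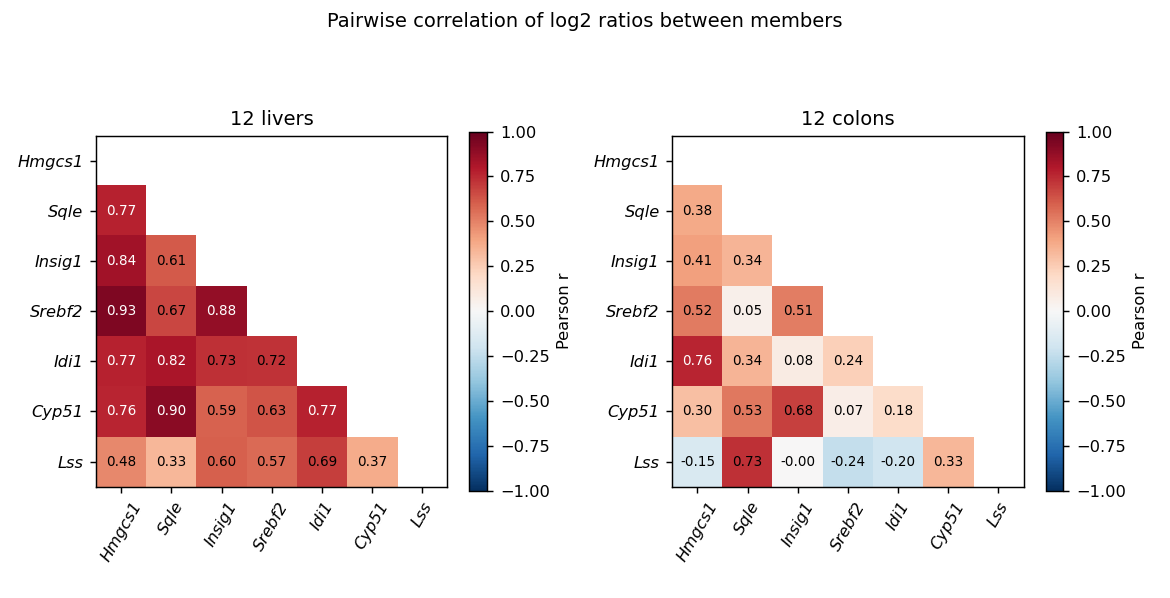
Pearson r of log2 levels for each pair of the 7 genes over 12 livers and over 12 colons. Liver values run from 0.33 to 0.93, the lowest being those of Lss with Sqle and with Cyp51, and colon values from -0.24 to 0.76.

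Markers of colon epithelium and pancreas moved with these genes over the livers. The mean of the 8 colon epithelium markers correlated at r = 0.93 with Sqle, 0.92 with Cyp51, 0.67 with Hmgcs1 and with Idi1, 0.54 with Srebf2, 0.45 with Insig1 and 0.09 with Lss. The mean of the 6 pancreas markers gave 0.95 with Sqle and with Cyp51, 0.80 with Idi1, 0.71 with Hmgcs1, 0.59 with Srebf2, 0.52 with Insig1 and 0.26 with Lss. Smooth muscle markers gave 0.86 with Sqle, 0.72 with Cyp51 and -0.03 to 0.57 with the other 5 genes, and hepatocyte markers 0.15 to 0.44 with the 7. By their main probes, Sqle and Cyp51 were thus the genes closest to the lists of colon epithelium, pancreas and smooth muscle, and Lss the farthest. The main Lss probe was well above background on 8 livers, and its r over the livers with the other Lss probes was 0.54 and 0.08. Adipose, skeletal muscle, red blood cell and B cell markers lay between -0.57 and 0.45.
The colon epithelium mean was low in all livers, from -4.40 to -3.20 in HF-low-low and from -4.30 to -3.05 in HF-low-suf, against 0.51 to 1.11 in colons. Of these markers 5 of 8 were well above background on all 12 livers, and each was on at least 1. The pancreas mean ran from -2.72 to -1.41 in HF-low-low livers and from -2.84 to -1.26 in HF-low-suf livers, with 2 of 6 markers above background on all 12 livers. Those 2, Amy2 and Ctrb1, had r over the livers of -0.01 and 0.70 with Sqle and 0.32 and 0.57 with Cyp51, whereas Cpa1, Cpb1, Pnlip and Cel, detected on 1 to 9 livers, had 0.88 to 0.96 with Sqle. The 5 colon epithelium markers detected on all 12 livers had 0.65 to 0.86 with Sqle. The mean of the 6 smooth muscle markers ran from -3.42 to -2.03 in livers and from -0.16 to 0.66 in colons. HF-low-low replicate 6 and HF-low-suf replicate 4 were the highest livers of their groups on all 3 lists. Without these 2 livers the median r of the 21 pairs was 0.50. It was 0.58 with the colon epithelium mean regressed out of each gene and 0.43 with the pancreas mean regressed out, all 3 settings being chosen after the data were seen. The part of these markers in the co-variation was not tested further.

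**Figure D5:**
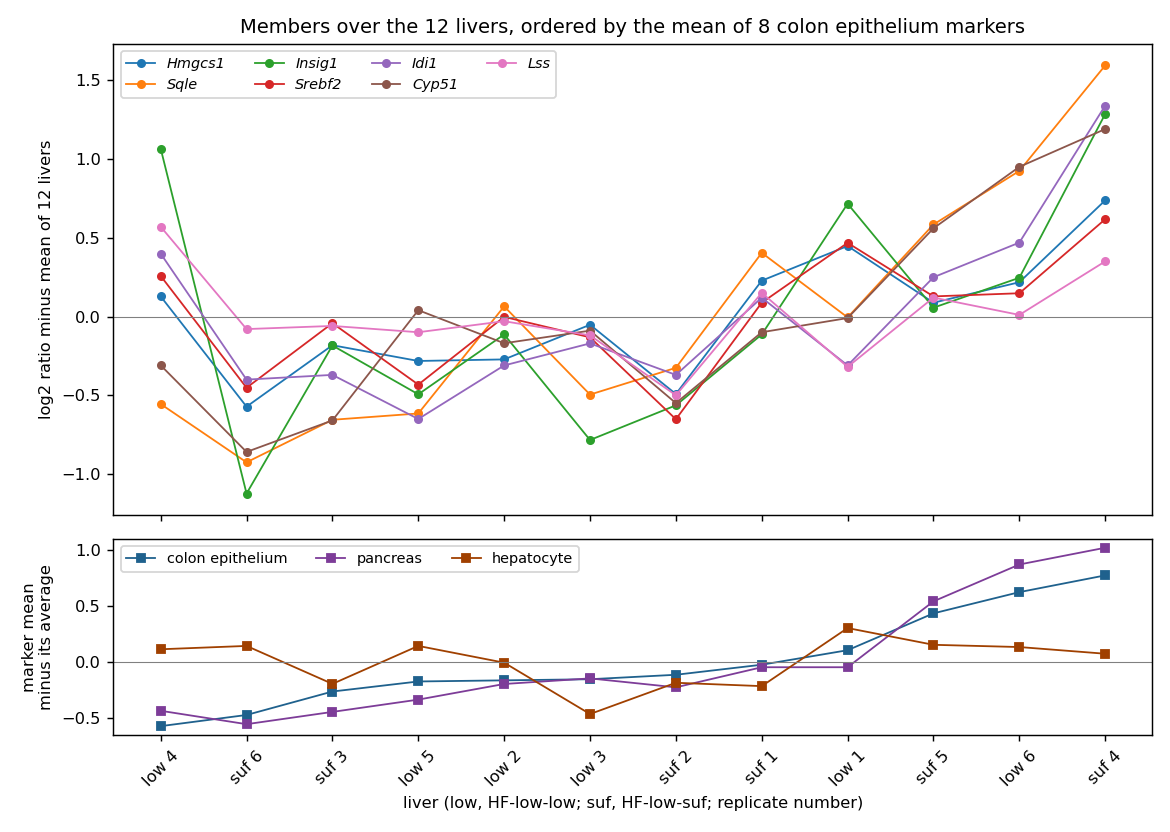
Top, level of the 7 genes in each of the 12 livers, as the log2 value minus the mean of the 12. Bottom, the means of marker lists treated alike, with livers ordered by the colon epithelium mean. Sqle and Cyp51 follow the colon epithelium and pancreas lines (r of 0.92 to 0.95), and Lss does not (0.09 and 0.26).

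Set against all probes in a limma regression over the livers, the genes differed in how many transcripts rose with them. The share of probes that rose (limma adjusted P below 0.05) was 6.67% for Sqle, 4.53% for Cyp51 and 0.00729% for Idi1, with none for Hmgcs1, Insig1, Srebf2 or Lss. In the other direction 1068 probes fell with Sqle and 653 with Cyp51, and none with the other 5 genes. Of the other 6 genes, 3 rose with Sqle and 3 with Cyp51. At unadjusted P below 0.05, 5 or 6 of the other 6 rose with each gene except Lss, with which 3 did, while of all probes 2.08% (Lss) to 13.3% (Sqle) did.

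The other synthesis enzymes were correlated with the 7 genes over the livers to differing degrees. Hmgcs1, Sqle and Srebf2 had r above 0.5 with 12 of the 16 other enzymes, Insig1, Idi1 and Cyp51 with 11, and Lss with 6, while of the bright probes 4.92% (Lss) to 13.5% (Sqle) had r above 0.5 with a given gene. Acat2 had r of 0.19 with Sqle and Hsd17b7, a late enzyme, r of -0.04. For Idi1 the closest was Fdps (r = 0.97, limma adjusted P = 0.00427), 1 of the 3 probes that rose with it. With Sqle 7 of the 16 enzymes rose, Mvd most closely (r = 0.92, limma adjusted P = 0.000452). The 6 enzymes that were higher in liver than in colon had a median r of 0.28 to 0.50 with the 7 genes, and the 10 others 0.52 to 0.79. In the other pathway lists 3 genes passed with Sqle. Npc1l1, which takes up sterols in the gut and was detected on 4 livers, rose (r = 0.88, limma adjusted P = 0.000732), as did Soat1 (r = 0.69, limma adjusted P = 0.0426), and Npc1 fell (r = -0.87, limma adjusted P = 0.00273). Of these 3, Npc1l1 also rose with Cyp51 (limma adjusted P = 0.00270).

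The 3 genes most like each of the 7 over the livers were taken by Pearson r among about 6588 bright named genes, as a description. For Hmgcs1 they were Dsc2, Ipmk and Srebf2 (0.94, 0.93 and 0.93), and for Srebf2 they were Casp9, Egfr and Mgam (0.97, 0.94 and 0.93). For Insig1 they were Tk1, Trp53inp2 and Pi4k2a (0.93, 0.91 and 0.89). For Idi1 they were Fdps, Irf1 and Pmvk (0.97, 0.94 and 0.93), of which Fdps and Pmvk are enzymes of the same pathway. Sqle was most like Akr1c21, Kazald1 and Myo1a (0.98, 0.97 and 0.97), Cyp51 like Atp7a, Clca3 and Kctd5 (0.94, 0.94 and 0.93), and Lss like Ube1dc1, Preb and Tmed9 (0.89, 0.88 and 0.87).

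Over the 12 colons the 21 pairs had a median r of 0.33 (range -0.24 to 0.76, median rho 0.22), and none had an adjusted permutation P below 0.05. Hmgcs1 with Idi1 was highest (r = 0.76, rho = 0.76, permutation P = 0.0048, adjusted P = 0.10), and r was 0.82 without the 2 farthest colons. Sqle with Lss, at r = 0.73 and rho = 0.11 (permutation P = 0.015, adjusted P = 0.11), went to -0.53 without the 2 farthest. The median r was 0.01 without the 2 farthest, 0.51 and 0.08 within the scan days, and 0.62 with arrays centred on their median instead of loess. Each of the 7 genes had r above 0.5 with 1 to 5 of the 16 enzymes, while of the bright colon probes 5.96% (Sqle) to 17.2% (Lss) had r above 0.5 with a given gene. In the regression over colons 0.0656% of probes (27) rose with Srebf2 and 940 fell. None of the 27 was the main probe of another of the 7 genes or of the 16 enzymes, and no probe rose with the other 6 genes. Srebf2 values depend on the probe here. Over the colons its main probe had r of -0.47 and -0.36 with 2 other Srebf2 probes that were well above background on all 12 colons. With the dimmest Srebf2 probe, above background on 1 colon, r was 0.50. The difference between livers and colons in these correlations was not tested.

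Liver and colon of the same mouse were compared last, for each of the 7 genes over 12 mice. Insig1 gave r = 0.68 and rho = 0.52 (permutation P = 0.014, adjusted over 7 genes P = 0.10), and r = 0.42 without the 2 mice farthest from the median liver. Srebf2 gave r = 0.53 and rho = 0.49 (permutation P = 0.077, adjusted P = 0.27), and r = 0.68 without the 2 farthest. Its value comes from the main probe, which over the colons ran against 2 other Srebf2 probes, as given above. The other 5 genes lay between -0.40 (Idi1) and 0.29 (Lss), with adjusted permutation P of 0.47 or more, so that no gene passed.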

How the data were processed

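RNA of colon and liver was hybridised to two-colour Agilent mouse arrays. The authors scanned the arrays and quantified spots with Feature Extraction 9.5.3.1 (per the file headers), and the deposited values are spot mean intensity and local background median of each dye, neither background corrected nor normalized. Probe positions are in mm7. The study's own tables give fold changes and P values, from which only the stated direction was read and no value was used. Only the Agilent spot files were used.

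Spots flagged as outliers and control spots were left out (43379 of 45018 spots were no controls), background was corrected by normexp (offset 50), each array was loess normalized, and spots of a probe were averaged, leaving 41174 probes. Values are log2(Cy3/Cy5), since Cy3 held the sample. Samples were grouped by their labels. Tests used limma 3.58.1 in R 4.3.3 with Benjamini-Hochberg adjustment over all probes: tissue and interaction in a fit of 24 arrays that took the mouse as a random effect (correlation 0.158), diet within the 12 arrays of a tissue. The number of arrays limits the precision. Exact tests enumerated 924 regroupings or 4096 sign changes, and correlations used 100000 permutations, all two-sided. Colon and liver of a mouse form pairs because they are the same animal (r of deviations -0.03 to 0.28, above 0.1 in 8 of 12). Replicate numbers across diets mark the slide. The scripts were tested on simulated data.

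Promoter sequences came from RefSeq (GRCm38.p6). Named genes were the 7 genes, up to 3 rises and 3 falls per list past the threshold, and the 3 genes most like each over livers. Some list genes that this rule names are not reported here. The 7 genes and the lists were chosen with earlier results of these data known. Alternatives covered background correction, normalization, outlier spots, probes, filters, slide and scan day, and leaving out mice.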

Additional observations from a re-analysis of the deposited data

Results flagged for a closer look

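The 7 genes in each of the 4 groups gave 28 sets of 6 values. In 5 of them, 1 array stood apart from the other 5 by more than Dixon's 95% limit for 6 values. Chance gives about 1 in 20 for a single set. The sets share arrays and the genes correlate, so 5 of 28 cannot be compared with that rate. In liver, Idi1 was at -0.97 in HF-low-suf replicate 4, the array with the bright reference, and the nearest other liver of the group was at -2.06. Cyp51 was at -1.01 in liver HF-low-low replicate 6, 1 of the livers highest in colon epithelium and pancreas markers, and the nearest was at -1.92. Lss was at 0.56 in liver HF-low-low replicate 4, against 0.00 for the nearest. In colon, replicate 2 of HF-low-suf stood low for Sqle, at -0.47 against -0.04, and for Lss, at 0.22 against 0.83. Without this array's mouse, no diet difference of the 7 genes passed.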

How the results depend on the processing

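The counts of the 7 genes called (6 for tissue, and 0 for diet in liver, diet in colon and the interaction) stayed the same under the alternatives run, except that 5 passed for tissue with the second and 4 with the third brightest probes (Sqle kept its only probe in both settings, and Insig1 and Idi1, with 2 probes, kept their second in the other), where Hmgcs1 (-0.34, -0.26) and Lss (-0.33 with the third brightest) no longer passed. The slide as a replicate block gave 6, 0, 0 and 0, a median r of 0.72 in liver and 0.33 in colon with slide means subtracted, and 131 instead of 48 probes called for diet in liver. Same-numbered samples of the 2 diets were different mice on the same slide (r of deviations above 0.1 in 2 of 6 liver pairs and 3 of 6 colon pairs), and the block changed no call of the 7 genes. Leaving out each mouse gave counts of 6 to 6, 0 to 0, 0 to 0 and 0 to 0, and a median r of 0.59 to 0.82 in liver and 0.20 to 0.37 in colon. The median r in liver, 0.72, moved to 0.55 with quantile-normalized Cy3 alone, 0.44 and 0.29 with the second and the third probes, 0.47 on scan day 1, 0.42 and 0.91 within HF-low-low and HF-low-suf, 0.50 without HF-low-low replicate 6 and HF-low-suf replicate 4, and 0.43 with pancreas markers regressed out. In colon, 0.33 moved to 0.62 with median centring, 0.08 and 0.16 with the second and the third probes, 0.51 and 0.08 on the scan days, and 0.50 and 0.07 within the diets. Liver pairs that reversed with the second and the third probes, where those of Insig1 and Idi1 are the same probe, were Insig1 with Hmgcs1 (-0.25, -0.20), Sqle (-0.17, -0.17), Srebf2 (-0.22, -0.06) and Idi1 (-0.19, -0.19), and Idi1 with Lss (-0.13 with the third brightest). Insig1 with Idi1 also reversed on scan day 1 (-0.08). This list holds only pairs with an adjusted permutation P below 0.05 over the 12 livers. Of the other pairs, Insig1 with Lss was negative on scan day 1 (-0.01). Within HF-low-low, Lss was negative with Hmgcs1 (-0.07), Sqle (-0.21) and Cyp51 (-0.22), as was Insig1 with Cyp51 (-0.04). The causes were not tested. Probes called for diet numbered 9 to 304 in liver (lowest without HF-low-low replicate 1) and 23 to 257 in colon with a mouse left out, and 2 to 144 and 3 to 278 otherwise. The element without its last base, added after seeing the data, was in 2 promoters instead of 1. Low signal limits Sqle, Cyp51, Insig1 and Lss, whose main probes were not well above background on every liver.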
